A study of Mus musculus with 8 samples.

Results

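The mouse mitochondrial genome encodes 13 mRNAs, 2 ribosomal RNAs and 22 transfer RNAs, and all 37 genes had a row in the table of 46078 genes, from which they were taken by a gene symbol starting with mt-. Their levels were compared between CNOT7&8 KO oocytes and oocytes of the Zp3-Cre control, both fully grown and at the germinal vesicle (GV) stage, the prophase arrest before meiotic maturation. The KO oocytes are Cnot7 fl/fl and Cnot8 fl/fl, with floxed alleles of genes of deadenylase subunits of the CCR4-NOT complex, which shortens the poly(A) tails of cytoplasmic mRNAs. Cre recombinase under the Zp3 promoter, active in growing oocytes, deletes both genes, and the control animals carry the Zp3-Cre transgene as well. Oocytes were taken from 4-week-old females of C57BL/6J background primed with pregnant mare serum gonadotropin. Each group had 4 libraries of 100 oocytes. The labels do not say whether libraries of a group came from separate animals, so p-values measure the spread between these libraries, which may be technical.

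Mitochondrial DNA is transcribed in both directions into long precursor RNAs, and tRNAs lying between the other genes mark the sites where these precursors are cut. The 13 mRNAs encode subunits of respiratory chain complexes I, III and IV and of ATP synthase, and the 2 rRNAs form the mitochondrial ribosome together with proteins made in the cytosol. After cutting, the mitochondrial poly(A) polymerase encoded by Mtpap adds short tails to most of the mRNAs, and for several mRNAs the tail completes the stop codon. CCR4-NOT works outside the mitochondrion, whereas Pde12 encodes a deadenylase inside it. Oocytes hold very many mitochondria, which are passed to the embryo, and a comparison of the 2 groups shows how their transcripts stood after the loss of the cytoplasmic deadenylase subunits.

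The sequences below were read from the GENCODE vM21 transcripts of GRCm38, the genome build to which the authors mapped the reads. The first set shows the 3′ ends of 3 mRNAs that stop at the first base of a stop codon, in capitals, so that the As of a tail are needed to make TAA. They are shown because tails of these RNAs have a coding role that tails of cytoplasmic mRNAs do not have. The counts do not measure tail length.

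mt-Co3: tacgtctccatttattgatgaggatctT

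mt-Nd4: ccaaaactaattacaggcctgacaataT

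mt-Cytb: gaagacaaaatactaaaattatatccaT

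The second set shows the 3′ ends of mt-Co1 and mt-Ts1, a serine tRNA, which lie on opposite strands and share 3 bases, in capitals. Each sequence is given 5′ to 3′ on its own strand. Both genes passed the test in the comparison, mt-Ts1 with at most 13 counts in a library. Counts of mt-Ts1 can be told from reads of the opposite strand only if reads were counted by strand, a setting not given in the sources used here.

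mt-Co1: ggaaccaacctatgtaaaagtaaaaTAA

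mt-Ts1: ttagggggttcgattccttcctttcTTA

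The third set shows mitochondrial genes beside stretches of the nuclear genome that were copied from mitochondrial DNA, with differing bases in capitals. A read from a stretch without a difference has 2 equally good positions in the genome.

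mt-Co2: atggcctacccattccaacttggtctac

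Gm28661: atggcctacccattccaacttggtctac

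mt-Nd3: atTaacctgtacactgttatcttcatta

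Gm28438: atCaacctgtacactgttatcttcatta

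mt-Nd2: ggaggCcttccaccactaacaggattCT

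Gm13339: ggaggTcttccaccactaacaggattTC

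The mitochondrial stretches shown are, in the order printed, chrM:9363-9390, chrM:11517-11544, chrM:15261-15288, chrM:6845-6872, chrM:6870-6897 (mt-Ts1, minus strand), chrM:7013-7040, chrM:9459-9486 and chrM:4667-4694, on the plus strand unless stated. The nuclear ones are on the minus strand, at chr1:24615538-24615565 (Gm28661), chr1:24613092-24613119 (Gm28438) and chr2:22590281-22590308 (Gm13339). The 28 bases of mt-Co2 and Gm28661 were identical. In mt-Nd3 and Gm28438 they differed by T3C, and in mt-Nd2 and Gm13339 by C759T, C780T and T781C, where the mitochondrial base comes first and positions count from the first base of the mitochondrial gene.

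Libraries had between 8639444 and 44092144 counts in all. A signal of 3 counts, taken as the floor, was 0.068 CPM (counts scaled to a fixed library total) in the deepest library and 0.347 CPM in the shallowest, and floors and intervals cover counting error only. The labels name a kit that removes ribosomal RNA, mitochondrial rRNA included, so the values of mt-Rnr1 and mt-Rnr2 are what that step left. The cytoplasmic 18S rRNA that remained took 0.0504% to 5.75% of counts in control and 0.559% to 6.94% in KO libraries. Cnot8 stood at 21% and Cnot7 at 77.1% of the control level, with both genes lower in each KO library than in each control library, and the counts cover whole genes, deleted exons included. All 14 oocyte markers were tested and present in each library, with sums of 32330 to 38940 CPM in control and 24240 to 28880 CPM in KO libraries. Of them, 9 were lower in KO (64.3%, against 24.1% of all genes tested and 41.9% of those of at least 10 CPM). With library totals as the scaling, 5 were lower and 1 higher, beside 2618 and 7744 of all 19241 genes tested. Of 14 granulosa and cumulus cell markers, 13 were tested, 7 were higher and 1 was lower in KO (53.8% and 7.69%, against 31.2% and 24.1% of all genes tested), with sums of 135 to 190 CPM in control and 231 to 323 CPM in KO libraries. Their part in the results below was not tested. Of the 13, 7 had KO replicates 1 to 3 above all control libraries and 3 had KO replicate 4 above them. Foxl2, the 1 marker not tested, reached at most 0.109 CPM. In RNA from pooled oocytes, fewer cells, fewer mitochondria and less RNA per mitochondrion cannot be told apart.

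Mitochondrial genes took a small share of these libraries, and that share overlapped between the groups. Together the 37 genes held 1.01%, 0.755%, 0.889% and 0.913% of counts in control replicates 1 to 4, and 0.711%, 0.822%, 0.850% and 0.740% in KO replicates 1 to 4. The widest 95% Wilson interval of these shares spanned 0.0112 percentage points, far below the differences between libraries of a group. The mRNAs held 0.270% ± 0.0487 (SD, n = 4) of control counts and 0.250% ± 0.0338 (SD, n = 4) of KO counts. The 2 rRNAs held 0.620% ± 0.0613 (SD, n = 4) and 0.528% ± 0.0618 (SD, n = 4), and the tRNAs 0.00114% ± 0.000318 and 0.00191% ± 0.000665 (SD, n = 4 each).

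Of the 37 mitochondrial genes, 27 passed the filter on low counts (at least 0.2 CPM in 2 or more libraries). At an adjusted p of 0.05 or less in edgeR's quasi-likelihood test, 2 were lower in KO, mt-Co1 and mt-Rnr2, and 3 were higher, mt-Nd2, mt-Nd3 and mt-Ts1. Because mt-Ts1 reached 0.2 CPM only in KO libraries, it passed the filter through the group where it was high, and its call is not read as a result. Over all 19241 genes tested, 24.1% were lower and 31.2% were higher, and 55.2% were called in either direction, beside 5 of the 27 members. This difference was not tested. Only mt-Ts1 passed a 2-fold change as well by its fitted value, against 6.56% of all genes lower and 23.8% higher by that rule. The groups did not overlap for 2 members, mt-Co1 and mt-Rnr2, against 48.4% of all genes. The median log2 fold change of KO over control was -0.16 for the 12 mRNAs tested, -0.40 for the rRNAs and 0.40 for the 13 tRNAs tested, beside 0.12 for all genes and -0.26 for the 8728 genes of at least 10 CPM, of which 41.9% were lower and 20.9% higher. The tRNA median includes members that passed the filter through the libraries of a single group.

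**Figure D1:**
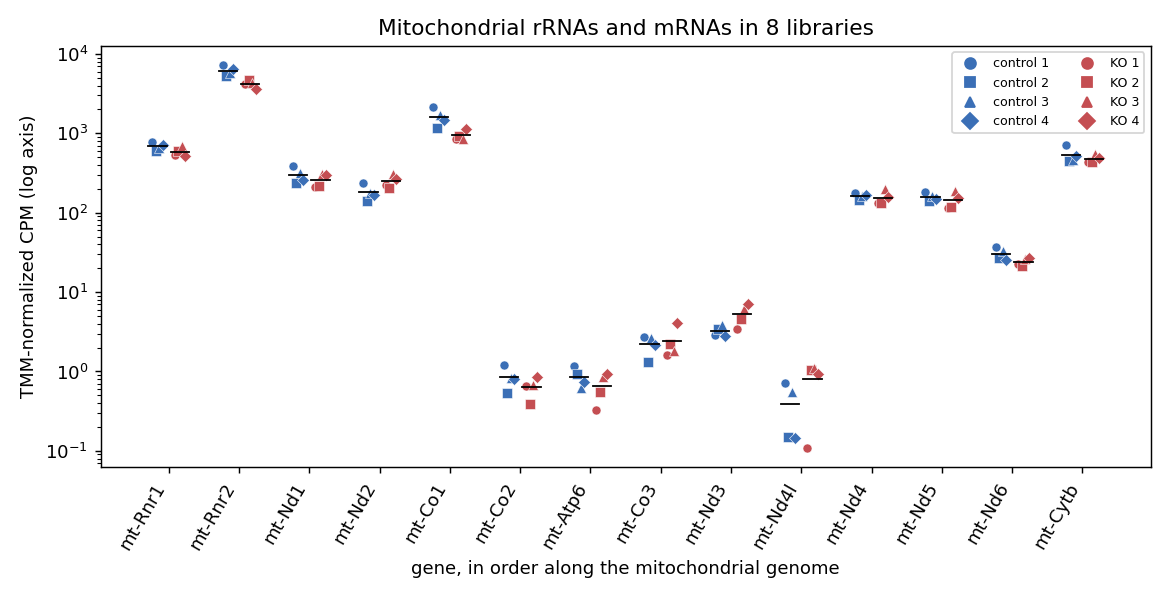
TMM-normalized CPM (log axis) of the 2 rRNAs and the 12 mRNAs tested, in genome order. Each point is 1 library, blue for the 4 control and red for the 4 KO libraries, and black lines are group means. KO libraries lie below all control libraries for mt-Rnr2 and mt-Co1, and mt-Co2, mt-Atp6, mt-Co3, mt-Nd3 and mt-Nd4l lie far below the other mRNAs.

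Direction depended for many members on how libraries were scaled. TMM, the scaling of the edgeR test, gave factors of 0.849 to 0.943 for control and 1.07 to 1.14 for KO libraries. With library totals alone, the median of all genes moved from 0.12 to 0.41 and that of the mt mRNAs from -0.16 to 0.14. Relative to the median of all genes, the mRNAs stood at -0.28 with TMM and at -0.27 with library totals. By the same measure, mt-Co1 stood at -0.90 and -0.90, mt-Rnr2 at -0.67 and -0.67, and mt-Nd2 at 0.36 and 0.37. A change of scaling moves all genes by nearly the same amount, so these pairs agree by construction. The reference matters too, since genes of at least 10 CPM had a median of -0.26 with TMM, below the -0.16 of the mt mRNAs.

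Among the mRNAs, mt-Co1 of complex IV had the highest level and the lowest fold change of KO over control. mt-Co1 (ENSMUSG00000064351, chrM:5328-6872, plus strand), which encodes the catalytic subunit of cytochrome c oxidase, had 2120, 1168, 1696 and 1483 TMM-normalized CPM in control replicates 1 to 4 and 847, 935, 850 and 1145 CPM in KO replicates 1 to 4. The highest KO library lay just under the lowest control library. The KO mean was 58.4% of the control mean, a log2 fold change of -0.78 ± 0.17 (standard error) with an adjusted p of 0.00207 by edgeR, which misses a 2-fold decrease. Across 22 settings, the one reported here included, mt-Co1 was lower in each and called in 21, with log2 fold changes of -0.90 to -0.36. The exception was scaling to the summed mt mRNAs, a pool of which mt-Co1 makes up the largest share (log2 fold change -0.36, adjusted p = 0.0578).

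The other 2 subunits of complex IV encoded in the mitochondrion were counted at very low levels. mt-Co2 had 0.543 to 1.20 CPM in control and 0.385 to 0.852 CPM in KO libraries (edgeR adjusted p = 0.402, log2 fold change -0.40), and mt-Co3 had 1.33 to 2.75 CPM and 1.63 to 4.12 CPM (0.16, adjusted p = 0.70). Both sets of ranges overlapped. For neither could a change of the size of that of mt-Co1 be read with confidence, since the standard errors were 0.39 and 0.34.

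Complex I, the NADH dehydrogenase, has 7 subunits encoded here, and 2 of them were higher in KO. mt-Nd2 (ENSMUSG00000064345, chrM:3914-4951, plus strand), a subunit of the membrane arm, had 236, 141, 176 and 169 CPM in control and 223, 208, 308 and 268 CPM in KO replicates 1 to 4. Control replicate 1 lay within the KO range, and the other 3 control libraries lay below it. The log2 fold change was 0.48 ± 0.17 (standard error), and edgeR's adjusted p was 0.0269. The call was lost without control replicate 2 (0.38, adjusted p = 0.0828), 3 (0.47, adjusted p = 0.0602) or 4 (0.45, adjusted p = 0.0681).

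mt-Nd3 (ENSMUSG00000064360, chrM:9459-9806, plus strand), also a membrane arm subunit, had 2.89, 3.46, 3.81 and 2.77 CPM in control and 3.48, 4.56, 6.04 and 7.08 CPM in KO replicates 1 to 4. KO replicate 1 lay within the control range. This rested on 32 to 208 counts per library, and the log2 fold change was 0.73 ± 0.24 (standard error), with an adjusted p of 0.0215 by edgeR. Without control replicate 4 it was 0.67 (adjusted p = 0.0568), and without KO replicate 4 it was 0.58 (adjusted p = 0.0695), so that the call depended on each of these libraries.

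The 5 other complex I mRNAs did not pass the test. mt-Nd1 had 238 to 393 CPM in control and 212 to 307 CPM in KO libraries (log2 fold change -0.22, adjusted p = 0.314), mt-Nd4 144 to 178 CPM and 132 to 197 CPM (-0.06, adjusted p = 0.717), and mt-Nd5 139 to 183 CPM and 116 to 190 CPM (-0.15, adjusted p = 0.449), all by edgeR. mt-Nd6, the only mRNA encoded on the minus strand of the reference, had 37.0, 26.7, 32.9 and 25.6 CPM in control and 22.5, 21.5, 26.2 and 26.9 CPM in KO libraries (-0.33, adjusted p = 0.0805, edgeR). mt-Nd4l had 1 to 27 counts per library, with 0.146 to 0.722 CPM in control and 0.109 to 1.11 CPM in KO (edgeR adjusted p = 0.177, log2 fold change 1.0, error 0.60). The sign of mt-Nd1, mt-Nd4 and mt-Nd5 turned with library totals as the scaling, to 0.08, 0.23 and 0.14.

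Complex III has a single subunit encoded in the mitochondrion, cytochrome b. Its mRNA mt-Cytb had 707, 442, 464 and 525 CPM in control and 440, 438, 545 and 489 CPM in KO libraries. These values overlapped (edgeR adjusted p = 0.373, log2 fold change -0.16 with a standard error of 0.15), and with library totals the sign turned (0.13). For ATP synthase, mt-Atp6 had 0.612 to 1.18 CPM in control and 0.326 to 0.920 CPM in KO libraries (-0.35, adjusted p = 0.468, edgeR). mt-Atp8, which overlaps mt-Atp6 by 43 bases, had at most 3 counts in a library and was not tested.

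After depletion, mt-Rnr2 was the most abundant mitochondrial RNA, while mt-Rnr1 lay below mt-Co1 in each library. mt-Rnr2 (ENSMUSG00000064339, chrM:1094-2675, plus strand), the 16S rRNA of the large ribosomal subunit, had 7242, 5293, 5738 and 6418 CPM in control and 4137, 4728, 4307 and 3662 CPM in KO replicates 1 to 4. All KO libraries lay below all control libraries, at a mean of 68.2% of the control (edgeR adjusted p = 0.00262, log2 fold change -0.55 with a standard error of 0.12). With library totals the change was -0.26 and no longer passed (adjusted p = 0.0559), and relative to the summed mt mRNAs it was -0.15 (adjusted p = 0.506). It was called in 20 of 22 settings. mt-Rnr1, the 12S rRNA of the small subunit, had 771, 601, 653 and 723 CPM in control and 526, 593, 684 and 511 CPM in KO libraries, which overlapped (edgeR adjusted p = 0.102, log2 fold change -0.25, error 0.12). Without KO replicate 3 it passed the test (-0.31, adjusted p = 0.0253), and with library totals its sign turned (0.04).

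**Figure D2:**
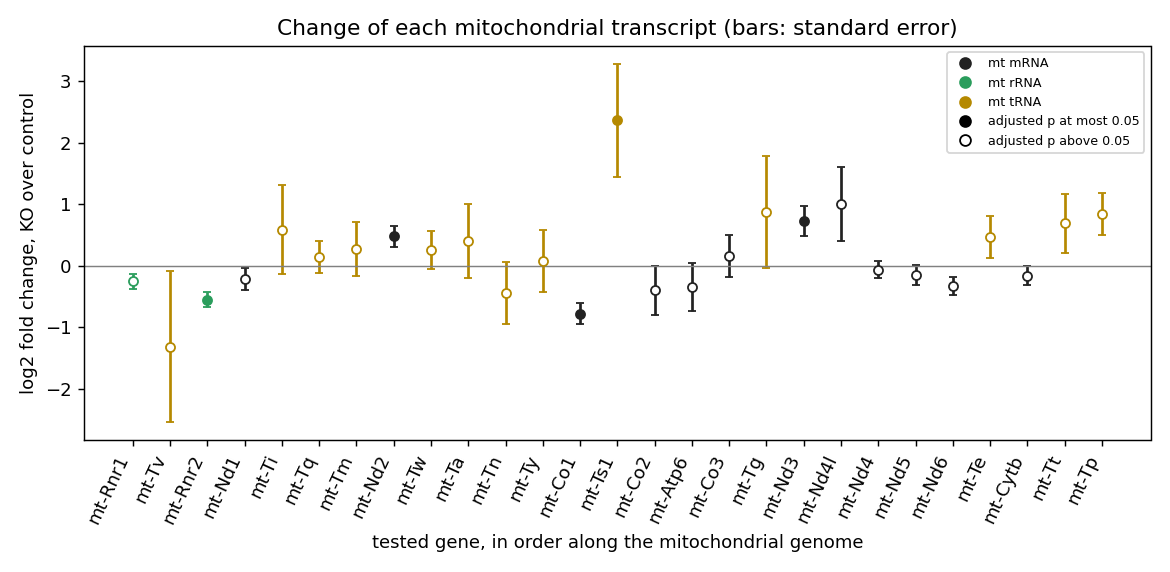
Log2 fold change of KO over control with its standard error (bars) for the 27 mitochondrial genes tested, in genome order and coloured by class. Filled points have an adjusted p of at most 0.05: mt-Rnr2 and mt-Co1 below 0, mt-Nd2, mt-Ts1 and mt-Nd3 above it, and tRNAs have wide bars.

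Transfer RNAs, which measure 59 to 75 bases here, were scarcely sampled, and the highest count of any of them in a library was 258. Of the 22, 13 were tested, 9 were not, and 3 (mt-Tf, mt-Td and mt-Tk) had no count in any library, which allows up to 0.068 CPM in the deepest. mt-Ts1 (ENSMUSG00000064352, chrM:6870-6938, minus strand) had 1, 2, 1 and 0 counts in control and 0, 7, 2 and 13 counts in KO replicates 1 to 4. KO replicate 1 had none, and KO replicate 3 had the same 2 counts as control replicate 2 (0.123 and 0.0987 CPM). Although the adjusted p of mt-Ts1 was 0.0443 in edgeR's test, all control libraries were at or under the floor and no fold is given. Leaving out control replicate 1, 3 or 4 raised the adjusted p to 0.108, 0.0663 and 0.0866, and without KO replicate 2 or 4 the gene was no longer tested. DESeq2 gave an adjusted p of 0.095. Without the filter on low counts, edgeR's adjusted p was 0.0527.

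The 3 tRNAs of the highest level were mt-Tp, mt-Tq and mt-Tw, for proline, glutamine and tryptophan. mt-Tp had 3.40, 2.67, 5.17 and 2.70 CPM in control and 3.69, 3.52, 8.57 and 8.79 CPM in KO libraries (edgeR adjusted p = 0.0512, log2 fold change 0.84 with a standard error of 0.34), so that KO replicates 3 and 4 lay above the control range and KO replicates 1 and 2 within it. It passed the threshold under edgeR's exact test (adjusted p = 0.0431) and DESeq2 (adjusted p = 0.0311). mt-Tq had 1.58 to 2.99 CPM in control and 1.96 to 2.96 CPM in KO libraries, and mt-Tw 1.23 to 2.94 CPM and 1.87 to 3.51 CPM, with adjusted p of 0.672 and 0.49 (edgeR). Of the 13 tRNAs tested, 11 had a positive log2 fold change, beside a median of 0.12 over all genes tested. Among the positive ones, mt-Ts1 and mt-Tg reached the filter of 0.2 CPM only in KO libraries. mt-Tv, 1 of the 2 negative ones, reached it only in control libraries. The signs of these members were thus set by the filter, and the count is not read as a result. The summed level of the 8 minus-strand tRNAs was 5.48 to 11.5 CPM in control and 7.28 to 14.8 CPM in KO libraries, and that of the 14 plus-strand tRNAs 3.65 to 5.17 CPM and 3.91 to 8.88 CPM. Both sums overlapped between the groups.

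Ratios between mitochondrial transcripts within a library do not depend on scaling, and several of them separated the groups. For each count of mt-Nd2, mt-Co1 had 9.0, 8.27, 9.66 and 8.77 counts in control replicates 1 to 4 and 3.80, 4.50, 2.76 and 4.27 counts in KO replicates 1 to 4. The lowest control ratio was well above the highest KO ratio. The ratio of mt-Nd2 to mt-Nd1, the mRNA before it in the same precursor, was 0.600, 0.592, 0.551 and 0.659 in control and 1.05, 0.949, 1.0 and 0.891 in KO libraries, again without overlap. These pairs were formed with the changes of mt-Co1 and mt-Nd2 known, so the ratios describe them in another way and are no separate evidence.

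mt-Co1 also stood lower against transcripts that were not called. Its ratio to mt-Nd1 was 4.90 to 5.78 in control and 2.77 to 4.27 in KO libraries, and that to mt-Cytb 2.64 to 3.65 and 1.56 to 2.34. Between the rRNAs, mt-Rnr2 to mt-Rnr1 was 8.78 to 9.40 in control and 6.30 to 7.98 in KO libraries. The other 3 pairs overlapped: mt-Nd5 to mt-Nd4 at 0.905 to 1.03 and 0.880 to 0.962, mt-Nd5 to mt-Nd6, which lie on opposite strands, at 4.96 to 5.89 and 5.16 to 7.25, and mt-Cytb to mt-Nd5 at 2.84 to 3.86 and 2.88 to 3.79. KO replicate 3 had the lowest ratio of mt-Co1 to each of its partners.

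**Figure D3:**
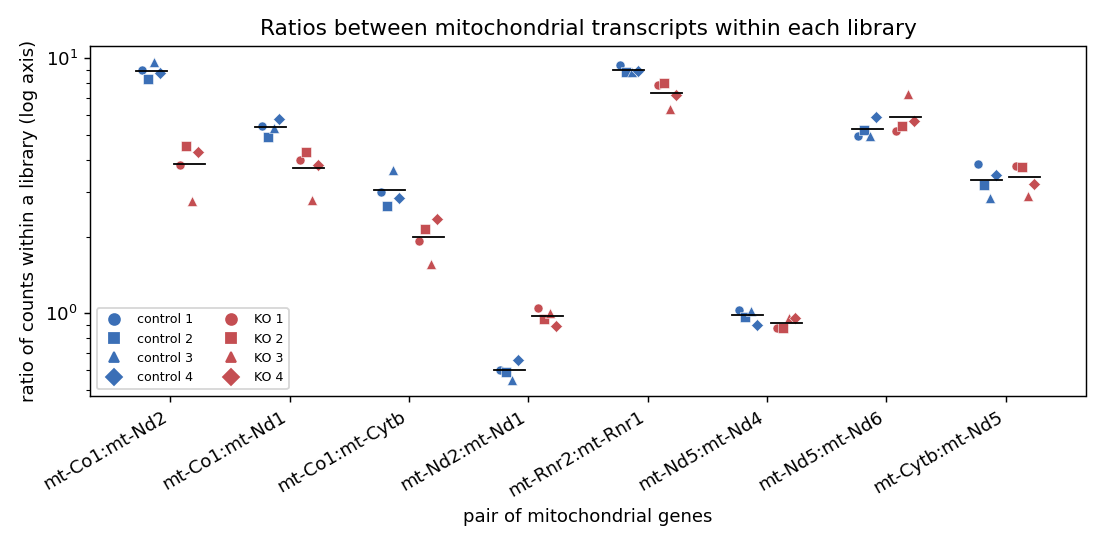
Ratio of counts between pairs of mitochondrial genes within each library (log axis), with control libraries in blue, KO libraries in red and group means as black lines. The 5 pairs on the left do not overlap between the groups, the widest gap being that of mt-Co1 to mt-Nd2 (8.27 to 9.66 against 2.76 to 4.50), and the 3 on the right do.

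As shares of the counts on the 13 mRNAs, mt-Co1 made up 53.7% ± 2.37 of control and 41.8% ± 4.71 of KO counts (SD, n = 4 each). mt-Nd2 went the other way, from 6.03% ± 0.144 to 11.1% ± 1.16 (SD, n = 4 each), and mt-Nd3 from 0.113% ± 0.0326 to 0.230% ± 0.0441 (SD, n = 4 each). These were the 3 mRNAs whose shares did not overlap between the groups. mt-Cytb, the second most counted mRNA, had 17.9% ± 1.74 and 21.2% ± 1.46 (SD, n = 4 each), where the ranges overlapped only between 19.2% in the highest control and 19.1% in the lowest KO library. A lower share of the largest component raises the shares of the others. These are shares of counts and not of RNA. mt-Co2, mt-Atp6, mt-Co3, mt-Nd3 and mt-Nd4l, whose counts are uncertain as set out below, held only 0.226% to 0.544% of them.

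Levels per length set the mRNAs far apart in the control oocytes, although the mRNAs of a strand are cut from shared precursors. In CPM per kilobase, mt-Co1 had 1046, mt-Cytb 467, mt-Nd1 315, mt-Nd2 174, mt-Nd4 118, mt-Nd5 87.3 and mt-Nd6 58.9. mt-Nd3 had 9.28 CPM per kilobase, mt-Co3 2.85, mt-Nd4l 1.31, mt-Atp6 1.27, mt-Co2 1.23 and mt-Atp8 0.182. No mRNA lay between 9.28 and 58.9 CPM per kilobase, and mt-Nd3, mt-Co3, mt-Nd4l, mt-Atp6 and mt-Co2 together made up only 0.226% to 0.544% of mt mRNA counts in a library.

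Apart from mt-Atp8, the low mRNAs were those with a near-identical nuclear copy over nearly their whole length. By alignment of annotated transcripts, 11 nuclear pseudogenes matched 9 of the mt mRNAs at 95% identity or more over at least 100 bases. Of these, 7 lie side by side on chr1:24611535-24616197, a stretch of 4663 bases, and match mt-Co2 (Gm28661), mt-Atp6 (Gm10925), mt-Co3 (Gm28437) and mt-Nd4l (Gm10222) at 100% identity, mt-Nd3 (Gm28438) at 99.7%, the last 483 bases of mt-Co1 (Gm29216) at 99.8% and the first 876 bases of mt-Nd4 (Gm28439) at 100%. In all, 5 mRNAs have over 95% of their bases in such a match of at least 99% identity, and these are mt-Nd3, mt-Co3, mt-Nd4l, mt-Atp6 and mt-Co2. mt-Atp8 has no annotated copy of its own, but its last 43 bases, shared with mt-Atp6, lie in the match of mt-Atp6. The rest of mt-Atp8 lies in the 233 bases between the matches of mt-Co2 and mt-Atp6. That stretch is as long on chromosome 1 as in the mitochondrial genome.

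**Figure D4:**
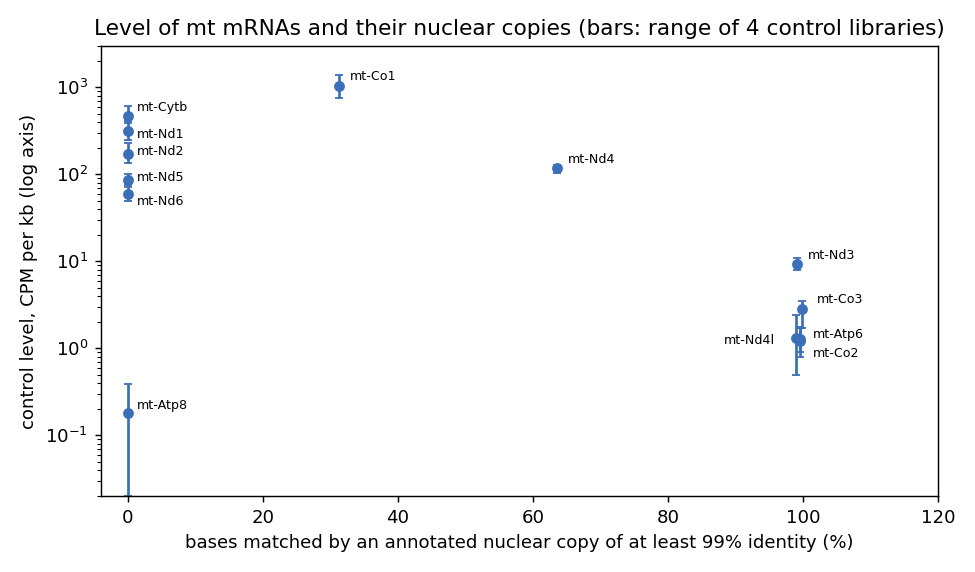
Control level of each mt mRNA in CPM per kilobase (log axis) against the share of its bases matched by an annotated nuclear copy of at least 99% identity. Points are means and bars the range of the 4 control libraries, with the bar of mt-Atp8 cut at the axis because its lowest value is 0. The 5 mRNAs at the right lie between 1.23 and 9.28 CPM per kilobase. For mt-Atp8, the 43 bases shared with mt-Atp6 are not counted as matched.

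For mt-Nd4 and mt-Co1, only a part is matched at 99% identity or more. With counts divided by the length outside these matches, the control and KO levels were 323 and 309 CPM per kilobase for mt-Nd4, and 1522 and 889 CPM per kilobase for mt-Co1. How reads with several positions were counted is not given in the sources used here, and its part in the levels was not tested. The copies themselves had at most 4.79 CPM, for Gm28437 in control replicate 1. In all 8 libraries, Gm10925, Gm28661 and Gm28437 had more counts than mt-Atp6, mt-Co2 and mt-Co3, which they match, while Gm28438 had fewer than mt-Nd3. Gm13339, the copy of the second part of mt-Nd2 on chromosome 2 with 96.7% identity, had no count in the KO libraries and at most 0.0535 CPM in a control library. Gm13340, also on chromosome 2, matches mt-Co1 over all of its 1545 bases at 97.6% identity and had 0.247 to 0.680 CPM in control and 0.326 to 0.493 CPM in KO libraries.

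Counts of the copies were then added to those of the mitochondrial genes they match, an alternative chosen after seeing the data. The same number of mRNAs was lower (1) and higher (2) in KO. The values of mt-Atp6 and mt-Co3, neither of which passed the test, turned sign, to 0.19 and -0.08. Levels and fold changes of mt-Co2, mt-Atp6, mt-Atp8, mt-Co3, mt-Nd3 and mt-Nd4l are thus uncertain, the call of mt-Nd3 included. So are sums and shares that include these genes, the summed mt mRNAs among them. Copies that match a part of mt-Nd4 (63.6% of its bases) and of mt-Co1 at 99% identity or more leave some uncertainty for both. A matching copy of lower identity leaves some for mt-Co1, mt-Nd2 and mt-Nd5 as well. At 99% identity, 31.3% of the bases of mt-Co1 and none of those of mt-Nd2 and the rRNAs were matched by an annotated copy.

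Nuclear genes that make, cut, tail and degrade mitochondrial RNA moved in both directions. Of 33 genes listed, 30 were in the table and tested, 11 were lower and 8 higher in KO (36.7% and 26.7%, against 24.1% and 31.2% of all genes). Among all genes of at least 10 CPM, 41.9% were lower and 20.9% higher. The median log2 fold change of the list was -0.28, beside -0.26 for genes of at least 10 CPM. With library totals, 6 were lower and 12 higher, beside 2618 and 7744 of all 19241 genes tested. For transcription, Polrmt, the mitochondrial RNA polymerase, had 10.6, 42.1, 34.6 and 33.8 CPM in control and 11.3, 12.1, 18.1 and 5.62 CPM in KO replicates 1 to 4 (edgeR adjusted p = 0.0117, log2 fold change -1.36 with a standard error of 0.40). Control replicate 1 lay within the KO range. Tfam, which packages mitochondrial DNA and starts transcription, rose from 38.4 ± 5.34 to 58.0 ± 5.75 CPM (SD, n = 4 each, 0.59, adjusted p = 0.00238, edgeR), without overlap.

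Of the genes for tails and stability, Mtpap had 217, 157, 166 and 161 CPM in control and 93.8, 101, 80.5 and 104 CPM in KO libraries, all KO libraries below all control libraries (edgeR adjusted p = 0.000134, log2 fold change -0.89 with a standard error of 0.13). Lrpprc, whose protein binds mt mRNAs and keeps them stable, had 115 ± 26.2 CPM and 69.0 ± 6.09 CPM (SD, n = 4 each, -0.74, adjusted p = 0.00133, edgeR), a call lost relative to the summed mt mRNAs (-0.33, adjusted p = 0.129). Pde12, the mitochondrial deadenylase, had 35.5 to 42.0 CPM in control and 37.4 to 44.9 CPM in KO libraries and did not pass the test (0.16, standard error 0.12, adjusted p = 0.256), although it did with library totals (0.45, adjusted p = 0.00958). Fastkd2, needed for 16S rRNA and mitoribosome assembly, fell from 43.1 ± 7.30 to 19.9 ± 1.85 CPM (SD, n = 4 each, -1.12, adjusted p = 5.83e-05, edgeR). Mterf1b, of the termination factor family, fell from 9.15 ± 1.61 to 4.23 ± 0.469 CPM (SD, n = 4 each, -1.12, adjusted p = 0.000339, edgeR), and its close paralogue Mterf1a makes the split of reads between them uncertain.

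Hsd17b10 had 4.44, 5.23, 3.88 and 4.08 CPM in control and 34.1, 37.6, 26.6 and 28.2 CPM in KO replicates 1 to 4, a log2 fold change of 2.83 ± 0.17 (standard error) with edgeR's adjusted p at 1.9e-07. Its product is a dehydrogenase and also a subunit of mitochondrial RNase P, which cuts the 5′ ends of tRNAs from the precursors. Of the 4 genes for transcript cleavage, 2 were higher and 1 was lower, beside 55.2% of all genes called in either direction. Mrm1, an rRNA methyltransferase, had 0 to 0.612 CPM in control and 2.58 to 4.56 CPM in KO libraries (3.11, adjusted p = 0.000181, edgeR), and Mterf2, another termination factor family member, 0.437 to 1.10 CPM and 2.90 to 5.82 CPM (2.43, adjusted p = 5.9e-05, edgeR). Mrm1 had 1 control library at 0.

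For mitochondrial DNA maintenance, 12 of 13 listed genes were tested, 2 were lower and 2 were higher (16.7% each, against 24.1% and 31.2% of all genes), with a median log2 fold change of -0.08, beside 0.12 for all genes. With library totals, 2 were lower and 4 higher, beside 2618 and 7744 of all 19241 genes tested. Slc25a36, a carrier that brings pyrimidine nucleotides into mitochondria, had 14.5, 7.75, 8.37 and 8.30 CPM in control and 51.3, 55.5, 70.4 and 87.9 CPM in KO replicates 1 to 4 (edgeR adjusted p = 2.3e-06, log2 fold change 2.75, error 0.24).

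**Figure D5:**
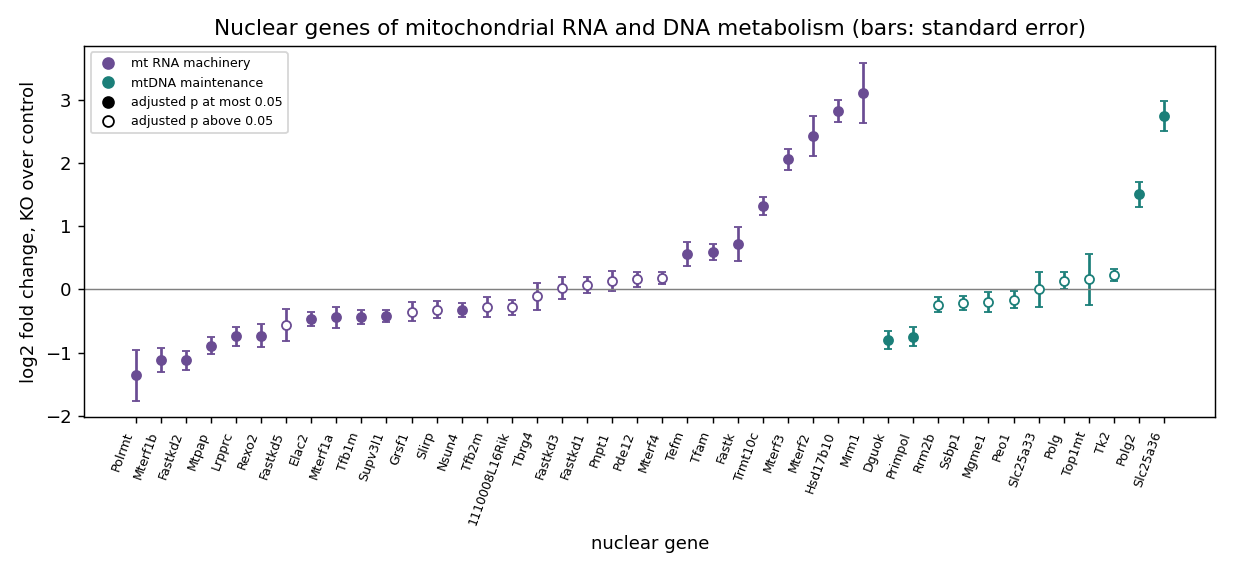
Log2 fold change of KO over control with its standard error (bars) for the 30 tested genes of mitochondrial RNA metabolism (purple) and the 12 of mitochondrial DNA maintenance (green), each sorted by value. Filled points have an adjusted p of at most 0.05. The values run from -1.36 for Polrmt to 3.11 for Mrm1.

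The respiratory chain is built from both genomes, and many of its nuclear subunits were lower in KO with TMM scaling. Of 70 nuclear genes for subunits of complexes I, III and IV and ATP synthase, all were tested, 43 were lower (61.4%, against 24.1% of all genes and 41.9% of those of at least 10 CPM) and 2 were higher, Uqcrc1 and Cyc1, named after their values were seen. This count depended on scaling and on single libraries, in alternatives added after seeing the data. With library totals, 9 were lower and 4 higher (median -0.27), beside 2618 and 7744 of all 19241 genes tested (median 0.41). For 31 of the 70, control replicate 1 lay below the other 3 control libraries and no higher than the highest KO library. Without control replicate 1, 56 were lower, and without KO replicate 4, 32 were lower. With both of these libraries left out, 57 were lower and 3 higher. Over all genes tested, these 3 fits gave 4847 of 19173, 4236 of 18756 and 4899 of 18665 lower. Of the 12 mt mRNAs tested, 1 was lower and 2 were higher. The median log2 fold change was -0.54 for the nuclear subunits and -0.16 for the mt mRNAs, and this difference was not tested. For complex I, 25 of 36 nuclear genes were lower (median -0.59), while of the mitochondrial ones mt-Nd2 and mt-Nd3 were higher. For complex IV, 7 of 10 were lower (median -0.51), as was mt-Co1, and for ATP synthase 9 of 15 (median -0.55), where mt-Atp6 did not pass and mt-Atp8 was not tested. Complex III had 2 lower and 2 higher of 9 (median -0.33), beside mt-Cytb, which did not pass the test.

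The granulosa markers differed between KO libraries. Their sum was 231 CPM in KO replicate 4, above the highest control sum of 190 CPM, and 249 to 323 CPM in the others. Inha, a granulosa hormone gene, had 6.86 ± 2.31 CPM (SD, n = 4) in control libraries, 26.5 to 38.4 CPM in KO replicates 1 to 3 and 4.77 CPM in KO replicate 4, within the control range, while Nr5a2 (132 CPM) and Kitl (40.1 CPM) of that library lay above their control ranges. In that library mt-Co1 stood at 1145 CPM, the highest of the KO libraries, and mt-Rnr2 at 3662 CPM, the lowest. Without KO replicate 4 the calls of mt-Co1 and mt-Rnr2 were kept, with 1 mRNA lower and 1 higher. That fit keeps the KO libraries with the higher marker sums, so the part of granulosa RNA in these calls was not tested by it.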

How the data were processed

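RNA-seq of GV oocytes was analysed in 8 libraries, 4 CNOT7&8 KO and 4 Zp3-Cre control, grouped by the deposited labels. According to the study's methods and the submitters' processing notes, the authors mapped read pairs to GRCm38 with STAR 2.6.1d in the nf-core/rnaseq pipeline and used edgeR 3.11. The authors deposited raw counts per gene, without normalization or pooling. The counting tool, annotation, strand setting and treatment of multiply mapped reads are not given in the sources used here. The methods and the labels name different kits, both used with ribosomal RNA depletion.

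Counts were analysed in R 4.3.3 with edgeR 4.0.16. Genes reaching 0.2 CPM in at least 2 libraries were scaled by TMM and tested with edgeR's quasi-likelihood test, two-sided, with Benjamini-Hochberg adjustment over all 19241 genes, at 0.05. CPM per library are counts over the TMM-scaled total. Scripts were tested on simulated data first. Nuclear copies were found with BLAST 2.17.0 (at least 95% identity over 100 bases) among GENCODE vM21 transcripts of GRCm38. Ratios, shares and lists are described without tests. Figures were made with matplotlib 3.10.9 in Python 3.11.15. Alternatives were edgeR's exact test, DESeq2 1.42.0, other scalings, filters and thresholds, the replicate number as a block, and leaving out libraries.

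The genes named were all mt mRNAs and rRNAs, tRNAs that passed the test or had the 3 highest levels, the 4 genes of mitochondrial RNA and DNA metabolism with the largest change in each direction, and Mtpap, Pde12, Lrpprc, Polrmt and Tfam. Members, lists and rule were chosen with earlier results of these data known. Counts per library ranged from 8639444 to 44092144, which sets the precision of low values (3 counts are 0.068 to 0.347 CPM).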

Additional observations from a re-analysis of the deposited data

Results flagged for a closer look

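Values of 1 library that stood apart from the other 3 of its group by Dixon's criterion at the 95% level were found in 3 of 82 groups of 4 examined, where chance gives about 1 in 20 groups, or 4.1. All 3 were control replicate 1, the deepest library. Slc25a36 had 14.5 CPM there and 7.75 to 8.37 CPM in the other control libraries, and Mtpap 217 CPM against 157 to 166 CPM. The ratio of mt-Rnr2 to mt-Rnr1 was 9.40 there and 8.78 to 8.88 in the others. Without control replicate 1, the log2 fold change was 3.03 for Slc25a36 and -0.77 for Mtpap, both still past the threshold.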

How the results depend on the processing

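The 1 lower mt mRNA (mt-Co1) and the absence of lower mt tRNAs held under DESeq2, edgeR's exact test, the filters and each library left out. For the tRNAs this says little, since the 2 with a negative log2 fold change were sparsely counted. These were mt-Tv, with at most 7 counts in a library (standard error 1.22), and mt-Tn, with at most 21 (standard error 0.50). The share of counts on mt genes is taken over raw library totals, so tests and scalings could not change it. With each library left out, its mean stayed lower in KO, and with all 8 libraries the groups overlapped. Depth limits the low members: tRNAs had 258 counts or fewer in a library, and mt-Co2, mt-Atp6, mt-Co3, mt-Nd3 and mt-Nd4l 208 or fewer. Where a value changed with a setting, the cause was not tested unless named.

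At a 2-fold threshold, 0 mt mRNAs were lower and 0 higher, with 3 machinery genes lower and 5 higher, and at a false discovery rate of 0.01, 0 mt mRNAs and 0 mt tRNAs were higher. There were 2 mt tRNAs higher (mt-Ts1 and mt-Tp) with edgeR's exact test, library totals, RLE, upper quartile, TMM on genes of 10 CPM, totals without mt genes and 18S, and the mt mRNA pool. Machinery genes lower in KO numbered 6 with library totals, 6 with TMM on genes of 10 CPM, 5 with totals without mt genes and 18S, and 3 against the mt mRNA pool, with 12 higher in each of these 4. Over all 19241 genes tested, these settings gave 2618, 2863, 2670 and 1191 lower and 7744, 7589, 7754 and 7546 higher. Against the pool, 0 mt mRNAs were lower. The median log2 fold change of mt mRNAs was, in the same 4 settings, 0.14, 0.10, 0.13 and 0.23.

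Signs turned for mt-Rnr1, mt-Nd1, mt-Nd4, mt-Nd5 and mt-Cytb, none of which passed the test: 0.04, 0.08, 0.23, 0.14 and 0.13 with library totals, 0.01, 0.05, 0.19, 0.11 and 0.10 with TMM on genes of 10 CPM, 0.03, 0.07, 0.22, 0.13 and 0.13 with totals without mt genes and 18S, and 0.14, 0.18, 0.30, 0.22 and 0.24 against the mt mRNA pool, where mt-Co2 (0.01), mt-Atp6 (0.01) and mt-Nd6 (0.05) turned too. mt-Nd4 was 0.03 with upper quartile and 0.01 with a filter of 1 CPM in 4 libraries. With nuclear copies added, mt-Atp6 was 0.19 and mt-Co3 -0.08. Polrmt lost its call with totals without mt genes and 18S (-1.11) and against the mt mRNA pool (-1.08, adjusted p = 0.0515 in both, edgeR), and Lrpprc against the pool (-0.33, adjusted p = 0.129). Against the pool, 1 nuclear respiratory chain gene was lower and 4 higher, beside 1191 and 7546 of all 19241 genes tested. This count was added after seeing the data.

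Leaving out 1 library gave 1 lower and 0 to 2 higher mt mRNAs, 0 to 2 higher mt tRNAs, 9 to 12 machinery genes lower and 6 to 8 higher, and a median log2 fold change of mt mRNAs of -0.23 to -0.04. Ranges that crossed 0 were -0.24 to 0 for mt-Cytb, -0.21 to 0.33 for mt-Co3, -0.17 to 0.03 for mt-Nd4 and -0.02 to 0.27 for mt-Tq. With control replicate 1 and KO replicate 4 both left out, 1 mt mRNA and 0 mt tRNAs were higher, mt-Co3 was -0.10 and mt-Nd3 0.50 (adjusted p = 0.114).

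Replicate numbers are shared by the groups but did not pair the libraries: deviations of same-numbered libraries correlated at -0.07, -0.04, 0.11 and -0.12. With the replicate number as a block, 1 mt mRNA was lower and 2 were higher, 9 machinery genes were lower and 7 higher, the median of mt mRNAs was -0.16, mt-Co1 -0.75 and mt-Rnr2 -0.55, mt-Ts1 lost its call (adjusted p = 0.133) and mt-Tp gained one (0.74, adjusted p = 0.0412).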

Other observations

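Some nuclear partners of the mitochondrial transcripts are named here after their values were seen. Uqcrc1, a core subunit of complex III, rose, with 4.06 to 6.94 CPM in control and 18.8 to 41.4 CPM in KO libraries (log2 fold change 2.46, adjusted p = 7.16e-06, edgeR's quasi-likelihood test), and Cyc1, cytochrome c1 of the same complex, rose from 9.05 ± 0.294 to 15.8 ± 0.922 CPM (SD, n = 4 each, 0.80, adjusted p = 0.000377, edgeR). In the opposite direction, Atp5e, the epsilon subunit of ATP synthase, fell from 271 ± 54.7 to 88.5 ± 22.3 CPM (SD, n = 4 each, -1.62, adjusted p = 3.25e-05, edgeR). Ndufv1, a complex I subunit that binds NADH, had 57.5 CPM in control replicate 1, 121 to 125 CPM in the other 3 control libraries and 35.7 to 63.8 CPM in KO libraries (-1.03, adjusted p = 0.00318, edgeR).

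Among genes acting on mitochondrial RNA and DNA, Trmt10c, another subunit of mitochondrial RNase P, rose from 39.9 to 99.9 CPM on average, and 1110008L16Rik, listed with it under transcript cleavage, had 73.1 and 60.1 CPM. Mterf3, of the termination factor family, rose 4.17-fold. Polg2, the accessory subunit of the mitochondrial DNA polymerase, rose 2.86-fold, while Polg, the catalytic subunit, had 19.1 to 22.0 CPM in control and 20.8 to 28.1 CPM in KO libraries and did not pass the test (adjusted p = 0.414, edgeR). Dguok, which phosphorylates purine deoxynucleosides in mitochondria, stood at 57.5% of the control level (adjusted p = 0.000522, edgeR).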
